A study of Homo sapiens with 5 samples.

Results

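Interferon response genes are the antiviral programme that cells switch on when an interferon binds its receptor, and many cell lines transcribe part of it without added interferon. In the breast cancer line MDA-MB-231, 44 such genes were followed in weakly against strongly adherent cells and between sampling dates. They were taken by gene symbol from the deposited table of 25382 genes, all 44 were found, and all 44 were among the 13297 genes with enough reads to be tested. The list was chosen with earlier results of these data known, so the shares over all genes beside it describe and do not test. The line is of human origin, triple-negative and mesenchymal. The labels describe cells grown in DMEM with fetal bovine serum and an antibiotic/antimycotic mix, and shear stress was applied to the mixed population to separate cells by how firmly they held on. The weakly adherent group has 3 libraries, dated 6, 12 and 15 March, and the strongly adherent group has 2, dated 6 and 15 March. No interferon, virus or other agent is named for any library, and what the date marks (culture, separation, extraction or library) is not stated. The study asked how cells of different adhesion strength differ in expression, and each date with both groups allows that comparison to be made within the date.

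Type I interferons bind the receptor chains IFNAR1 and IFNAR2, whose kinases JAK1 and TYK2 phosphorylate STAT2. With IRF9 it forms part of ISGF3, a factor that binds the interferon-stimulated response element (ISRE) in the promoters of its targets. The targets include sensors of viral RNA, proteins that block translation or entry, the ubiquitin-like modifier ISG15 with its enzymes, and the transcription factors of the pathway themselves. Breast cancer lines and tumours are known to differ in their standing level of these genes.

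Libraries held between 19630386 and 21707459 reads assigned to genes, and the 44 genes had 23 to 6916 reads per library. Levels are given as CPM, counts scaled to library size with TMM factors. Markers of the line were checked: VIM lay between 2458 and 2746 CPM, and the hormone receptors ESR1 and PGR were listed at 0 in all 5 libraries, although the mesenchymal marker SPARC stayed under 1 CPM. Of 6 luminal epithelial markers, ESR1 and PGR included, 4 had enough reads to be tested. Among them KRT8 had 573 to 728 CPM and CDH1 1.18 to 2.07 CPM. Of 6 leukocyte markers 3 had enough reads to be tested, and the T cell marker CD3E was listed at 0. The 6 together summed to between 7.60 and 10.2 CPM in weakly and between 7.44 and 7.73 CPM in strongly adherent cells. Of 10 interferon genes in the table none had enough reads to be tested, and 9 were listed at 0 in every library. Whether libraries stem from separate cultures is not labelled, so p-values here gauge the spread among these samples, which may be technical. The tests share that spread across genes, so a p-value does not measure a gene's own spread alone. Since shear itself sorted the cells, its effect on them and what set them apart beforehand cannot be told apart. In bulk RNA, fewer cells with a response and less RNA per cell cannot be told apart.

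The letters of the ISRE, which ISGF3 binds, stand in the promoters of many of these genes. The 200 bases before an annotated start are shown for 6 of them, chosen after their values were seen because these genes were prominent in the adhesion difference, the date difference or both. Each is on the plus strand of GRCh38.p14, taken from RefSeq, at chr1:1013297-1013496 for ISG15, chr4:88456919-88457118 for HERC5, chr10:89392423-89392622 for IFIT1, chr10:89332329-89332528 for IFIT3, chr2:6877577-6877776 for RSAD2 and chr1:78649589-78649788 for IFI44. For IFIT3 and RSAD2 the window belongs to a further annotated start of the gene; the window of the first start of IFIT3 also holds matches of the ISRE core, and that of RSAD2 holds none. Capitals mark every match of the ISRE core, which is TTTC repeated after a gap of any 2 bases, or on the other strand GAAA repeated likewise, and adjoining matches overlap in ISG15 and HERC5.
ISG15: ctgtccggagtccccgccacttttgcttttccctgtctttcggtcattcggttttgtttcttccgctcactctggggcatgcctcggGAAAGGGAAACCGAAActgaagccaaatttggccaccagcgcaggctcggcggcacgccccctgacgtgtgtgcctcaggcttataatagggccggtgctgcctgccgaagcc
HERC5: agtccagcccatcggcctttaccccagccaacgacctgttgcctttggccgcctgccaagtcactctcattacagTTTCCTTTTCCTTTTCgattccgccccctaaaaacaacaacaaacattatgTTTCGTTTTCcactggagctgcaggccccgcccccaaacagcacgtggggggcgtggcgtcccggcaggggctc
IFIT1: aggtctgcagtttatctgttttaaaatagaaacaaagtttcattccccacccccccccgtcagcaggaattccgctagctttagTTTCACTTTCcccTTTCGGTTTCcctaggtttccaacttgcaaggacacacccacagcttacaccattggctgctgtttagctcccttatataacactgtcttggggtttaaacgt
IFIT3: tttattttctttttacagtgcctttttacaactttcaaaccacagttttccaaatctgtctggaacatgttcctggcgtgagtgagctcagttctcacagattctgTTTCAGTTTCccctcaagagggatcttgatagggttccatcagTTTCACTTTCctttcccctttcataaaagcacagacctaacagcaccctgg
RSAD2: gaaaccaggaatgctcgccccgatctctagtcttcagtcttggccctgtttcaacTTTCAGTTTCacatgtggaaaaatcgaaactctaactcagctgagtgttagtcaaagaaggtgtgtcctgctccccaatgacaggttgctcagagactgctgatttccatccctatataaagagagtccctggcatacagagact
IFI44: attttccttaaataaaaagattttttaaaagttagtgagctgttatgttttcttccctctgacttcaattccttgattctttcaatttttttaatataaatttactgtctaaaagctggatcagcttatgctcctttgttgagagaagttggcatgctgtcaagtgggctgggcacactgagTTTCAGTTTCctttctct

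The 44 interferon response genes were mostly lower in weakly than in strongly adherent cells. Their differences passed edgeR's test for 0 of the 44 without a date term and for 13 with libraries matched by date. RNA sensors and RNA-binding effectors, with ISG15 and its ligases, made up 11 of these 13, and the transcription factors of the pathway were not among them. Summed over the 44 genes, weakly adherent libraries had 1803, 2038 and 2047 CPM on 6, 12 and 15 March, a mean of 1962 ± 138 (SD, n = 3), and strongly adherent libraries had 2129 and 2170 CPM on 6 and 15 March, a mean of 2149.8 ± 29.2 (SD, n = 2). All 3 weakly adherent sums lay below both strongly adherent ones. Of 28 further induced genes outside this list, 16 had a negative log2 fold change, beside 50.2% of all genes, with a median of -0.02.

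In edgeR's quasi-likelihood test of adhesion over all 5 libraries, 0 of the 44 genes passed a Benjamini-Hochberg adjusted p under 0.05, where 2.68% of all genes tested were called, 0.918% lower and 1.77% higher. The smallest adjusted p was 0.143, for HERC5. Limma-voom also called 0, and DESeq2's Wald test called 1, IFIT2 (log2 fold change -0.45, adjusted p = 0.0344). Of all 13297 genes tested, limma-voom called 112 lower and 222 higher, and DESeq2 138 lower and 301 higher. At an unadjusted p under 0.05, 12 of the 44 genes were lower and 0 higher, against 6.35% of all genes lower at that threshold. The log2 fold change (weakly over strongly adherent) was negative for 34 of the 44 genes, against 50.2% of all genes, with a median of -0.14 beside -0.00054 for all genes. The values ran from -0.63 for OAS1 to 0.19 for IRF9. Weakly and strongly adherent libraries did not overlap for 15 of the 44 genes in the lower direction, against 14.5% of all genes, and for 4 in the higher direction, against 15.5%.

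When the shared date entered edgeR as a block, 13 of the 44 genes were called lower in weakly adherent cells and 0 higher, where 11.5% of all genes were called, 5.28% lower and 6.2% higher. These 13 were 1.16-fold to 1.56-fold lower: ISG15, HERC5, HERC6, DDX58, IFIH1, IFIT1, IFIT2, IFIT3, IFIT5, OAS3, OASL, RSAD2 and IFI27. The median over all 44 was -0.17. The fit rests on the pairs of 6 and 15 March, so that all 13 were lower in both pairs follows largely from the selection, as were 699 of all 702 genes called lower with the block. The groups did not overlap for 11 of the 13, beside 77.9% of the 702. The weakly adherent library of 12 March, which carries no weight in this fit, lay below both strongly adherent libraries for 12 of the 13, beside 81.9% of the 702, so neither count sets the 13 apart from the other genes called. The block leaves 1 residual degree of freedom, so the standard errors rest largely on spread shared across genes. ISG15 had log2 ratios of -0.60 on 6 March and -0.05 on 15 March, with an SE of 0.07 in this fit. IFIT3, with -0.55 and -0.41 on those dates, also had 0.07. The small adjusted p-values therefore do not measure how well the pairs agree. Under the same block DESeq2 called 4 of the 13 (IFIT2, IFIT3, OASL and RSAD2) while limma-voom called all 13. Of all 13297 genes tested, DESeq2 then called 104 lower and 248 higher, and limma-voom 695 lower and 831 higher. Both of these fits were chosen after the data were seen.

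**Figure D1:**
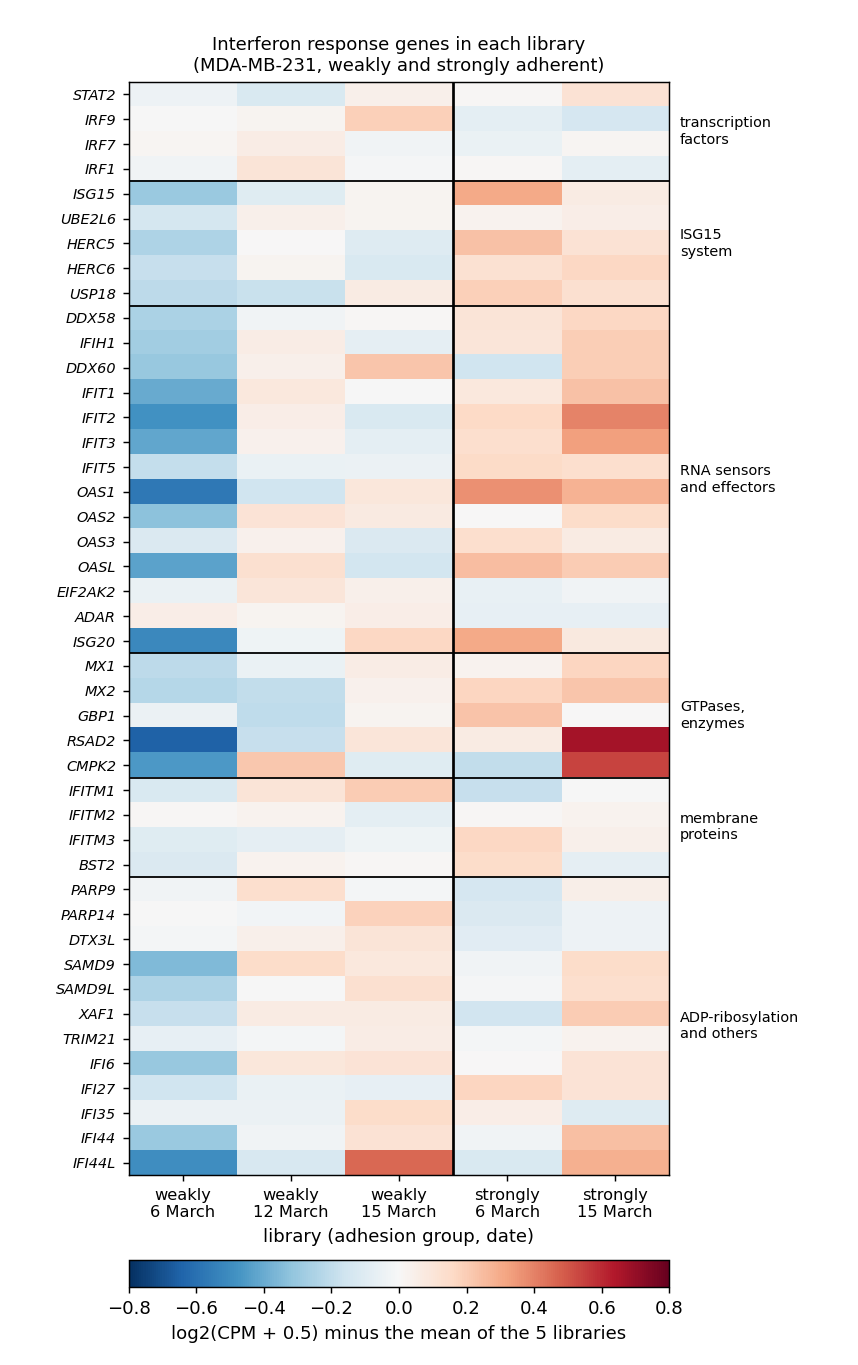
Level of each of the 44 genes in each library, as log2(CPM + 0.5) minus the gene's mean over the 5 libraries (colour; blue lower, red higher), with genes grouped by role and weakly adherent libraries left of the black line. The weakly adherent library of 6 March is the bluest column, with a median of -0.20 over the 44 genes beside -0.0045 over all genes.

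A single library weighed on these differences. The weakly adherent library of 6 March was the lowest of the 5 for 31 of the 44 genes, with a median deviation of -0.20 (log2) from the mean of the 5 libraries. The deviation was 0.02 on 12 March and 0.03 on 15 March in weakly adherent cells, and 0.03 on 6 March and 0.11 on 15 March in strongly adherent cells, where 17 genes peaked on the later date. Over all genes these medians stayed within 0.01 of 0. How many of all genes were lowest or highest in these libraries was not counted. Without the weakly adherent library of 6 March the median log2 fold change of the 44 genes was -0.08, without the strongly adherent library of 15 March it was -0.05, and without any 1 of the others it lay between -0.19 and -0.17. Reads not aligned were 1.74% to 3.02% of each library, the highest share in the strongly adherent library of 15 March, and their part in the difference was not tested.

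Within dates, the ratios were further from 0 in the pair of 6 March than in that of 15 March, a difference that could not be tested. On 6 March the median log2 ratio of the 44 genes (CPM + 0.5, weakly over strongly adherent) was -0.27, with 35 negative. Over all genes it was -0.01, with 51.3% negative. On 15 March the median of the 44 genes was -0.07, with 29 negative, against 0.01 and 47.9% negative for all genes. Of the 44 genes 26 were lower in weakly adherent cells in both pairs, against 31% of all genes, 6 were higher in both, and 12 went opposite ways. With 1 library per group on a date there is no test within it. The 95% interval from the counts alone lay below 0 for 25 of the 44 genes and above it for 1 on 6 March, where it lay below 0 for 19.3% and above it for 17.1% of all genes. On 15 March it lay below 0 for 14 of the 44 and above it for 5, beside 16.7% and 17.7% of all genes. Such intervals cover counting error only.

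**Figure D2:**
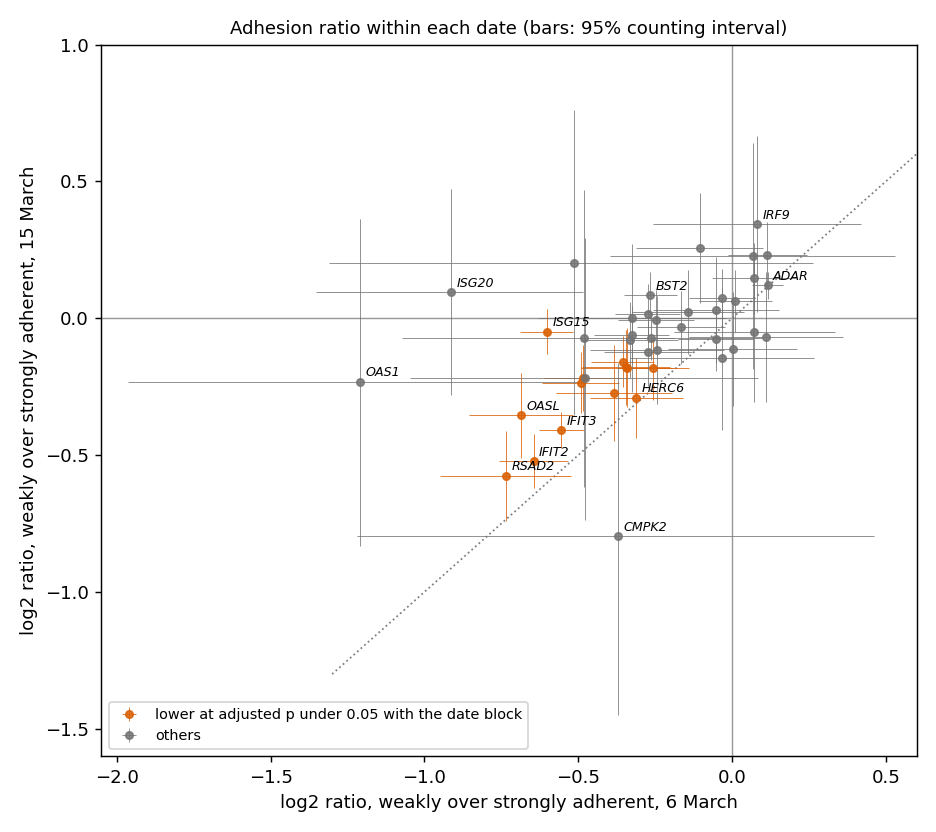
Log2 ratio of weakly over strongly adherent cells for each of the 44 genes in the pair of 6 March (horizontal axis) and of 15 March (vertical axis), from the counts without a pseudocount; bars are 95% counting intervals, and the dotted line marks equal ratios. The 13 genes that were lower with the date as a block (orange) lie below 0 on both axes, and most points lie left of the dotted line.

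The transcription factors of the pathway did not pass a test. Of the 4, 0 passed edgeR with or without the block, and their median log2 fold change was 0.05. STAT2, the ISGF3 subunit that activates transcription, had 50.3, 47.5 and 53.4 CPM in weakly adherent cells (6, 12 and 15 March), against 52.2 and 56.2 CPM in strongly adherent cells (6 and 15 March). Its groups overlapped, with a log2 fold change of -0.10 (edgeR adjusted p = 0.691, SE 0.09). IRF9, the subunit that binds DNA, had 7.27, 7.41 and 8.36 CPM in weakly and 6.87 and 6.59 CPM in strongly adherent cells. It was higher in all 3 weakly adherent libraries, but its log2 fold change of 0.19 (edgeR adjusted p = 0.65, SE 0.14) did not pass the test. IRF1, an induced activator that also acts in interferon-gamma signalling, had 64.9, 71.1 and 65.8 CPM in weakly and 66.4 and 62.5 CPM in strongly adherent cells, which overlap (log2 fold change 0.06, SE 0.08). IRF7, which drives transcription of the interferon genes, had a log2 fold change of 0.03 (SE 0.12).

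ISG15 and the genes of its conjugation had negative log2 fold changes in all 5 cases, with a median of -0.29, and 3 of the 5 fell with the date as a block. ISG15, the ubiquitin-like protein attached to newly made proteins, had 86.0, 98.6 and 107 CPM in weakly adherent cells (6, 12 and 15 March), against 130.5 and 111 CPM in strongly adherent cells (6 and 15 March). The groups did not overlap, but the libraries of 15 March lay close together while those of 6 March lay far apart. The log2 fold change was -0.31 (SE 0.10, edgeR adjusted p = 0.165), or -0.32 (SE 0.07, edgeR adjusted p = 7.77e-05) with the date as a block. HERC5, the main human ligase for ISG15, had 43.1, 51.2 and 47.6 CPM in weakly and 60.3 and 55.4 CPM in strongly adherent cells. Each weakly adherent library was below both strongly adherent ones, and the log2 fold change of -0.29 (edgeR adjusted p = 0.143, SE 0.09) became -0.35 (SE 0.08, edgeR adjusted p = 0.000142) with the block. HERC6, a related ligase that serves ISG15 in mice, had 30.4, 35.1 and 31.8 CPM in weakly and 37.7 and 38.9 CPM in strongly adherent cells, again without overlap. It fell with the block by 0.30 on the log2 scale (SE 0.09, edgeR adjusted p = 0.0062; 0.241 without it). USP18, the protease that removes ISG15 and dampens the receptor, was lowly expressed, at 2.09 to 2.92 CPM, with a log2 fold change of -0.31 (SE 0.21), and UBE2L6, the conjugating enzyme, had -0.06 (SE 0.09); neither passed a test.

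RNA sensors and RNA-binding effectors held 8 of the 13 genes that were lower with the date as a block. The log2 fold change was below 0 for 12 of 14 genes (median -0.24). DDX58, which encodes RIG-I, the sensor of RNA with triphosphate ends, had 66.8, 78.2 and 80.0 CPM in weakly adherent cells (6, 12 and 15 March), against 85.4 and 89.3 CPM in strongly adherent cells (6 and 15 March). No weakly adherent library reached the strongly adherent ones, and its log2 fold change was -0.22 (SE 0.09, edgeR adjusted p = 0.263), or -0.25 (SE 0.07, edgeR adjusted p = 0.00464) with the block. IFIH1, which encodes the long double-stranded RNA sensor MDA5, had 19.2, 24.5 and 22.3 CPM in weakly and 25.1 and 27.0 CPM in strongly adherent cells. It fell with the block by 0.33 on the log2 scale (SE 0.10, edgeR adjusted p = 0.0102; 0.355 without it).

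With the block, IFIT2 and IFIT3 had the smallest adjusted p of the 44 genes. IFIT proteins bind viral RNA and block its translation, and IFIT2 and IFIT3 join IFIT1 in a complex. IFIT2 had 50.6, 73.7 and 65.1 CPM in weakly adherent cells (6, 12 and 15 March), against 79.1 and 93.4 CPM in strongly adherent cells (6 and 15 March). All weakly adherent libraries were below both strongly adherent ones, and with the block IFIT2 fell (log2 fold change -0.58, SE 0.07, edgeR adjusted p = 8.05e-14; without the block -0.45, SE 0.15, edgeR adjusted p = 0.223). IFIT3 had 119.7, 164 and 151 CPM in weakly and 176 and 201 CPM in strongly adherent cells, also without overlap. Its log2 fold change was -0.38 (SE 0.13, edgeR adjusted p = 0.211), or -0.48 (SE 0.07, edgeR adjusted p = 5.01e-11) with the block. IFIT1, which holds RNA caps that lack methylation, had 41.8, 58.8 and 55.3 CPM in weakly and 58.7 and 65.1 CPM in strongly adherent cells. The weakly adherent library of 12 March reached the strongly adherent one of 6 March, so its groups overlapped, and the log2 fold change was -0.25 (SE 0.14, edgeR adjusted p = 0.475), or -0.36 (SE 0.08, edgeR adjusted p = 6.5e-05) with the block. IFIT5, which binds triphosphate ends, had 34.1, 37.4 and 37.7 CPM in weakly and 43.3 and 42.7 CPM in strongly adherent cells, without overlap. It had a log2 fold change of -0.24 (edgeR adjusted p = 0.206, SE 0.09), or -0.26 (SE 0.08, edgeR adjusted p = 0.0176) with the block.

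**Figure D3:**
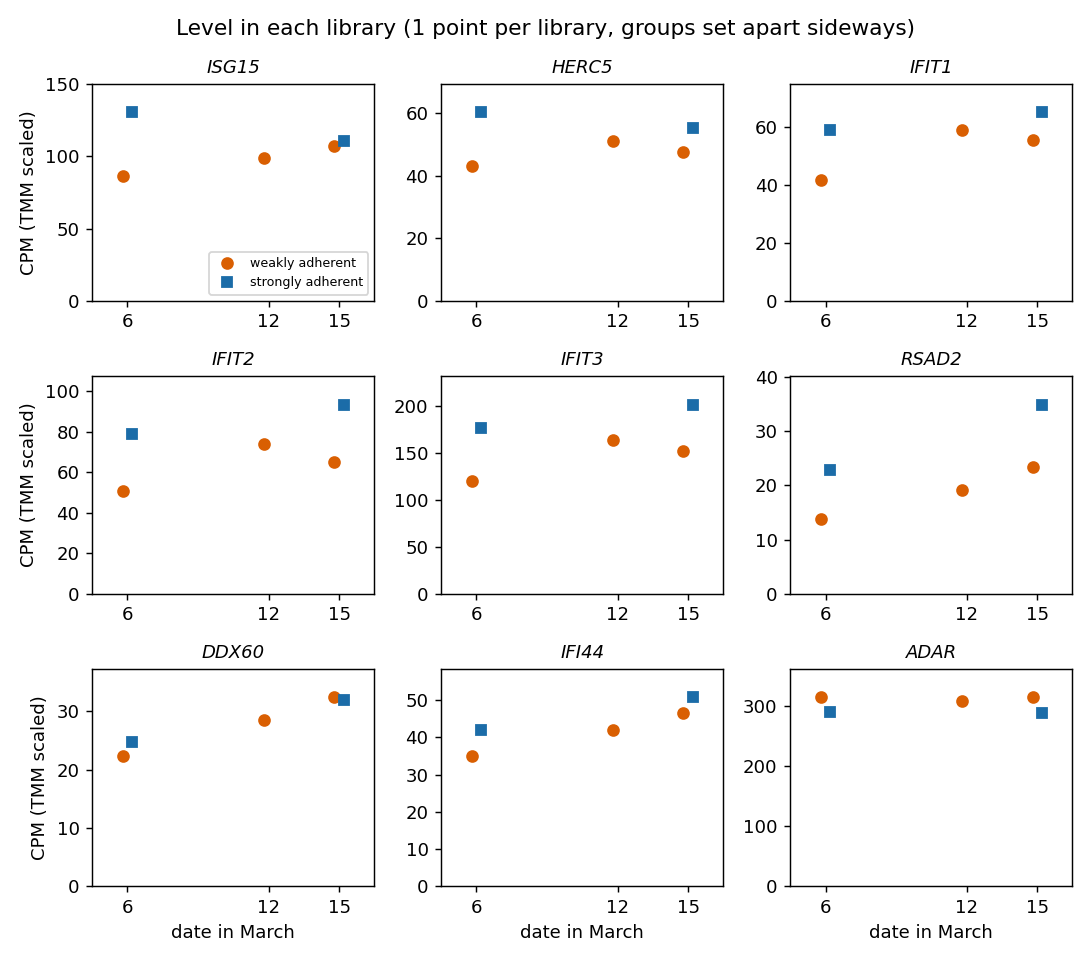
Level (CPM, TMM scaled, axes from 0) of 9 genes in each library against the date in March; 1 point per library, weakly adherent cells as orange circles and strongly adherent cells as blue squares. IFIT2, IFIT3 and RSAD2 lie apart by adhesion on both dates and also move with date, ISG15 lies apart mainly on 6 March, and DDX60 and IFI44 move with date.

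The oligoadenylate synthetases, which make the signal that activates RNase L, were less uniform. OAS1, of low level, had 1.14, 1.69 and 2.09 CPM in weakly adherent cells (6, 12 and 15 March), against 2.64 and 2.45 CPM in strongly adherent cells (6 and 15 March). All weakly adherent values were lower, with the most negative log2 fold change of the 44 genes in the fit without a block, -0.63 (SE 0.26, edgeR adjusted p = 0.285), and it did not pass with the block either (-0.66, SE 0.26, edgeR adjusted p = 0.0845). OASL, a relative without synthetase activity that helps RIG-I signal, had 22.3, 33.2 and 27.3 CPM in weakly and 35.9 and 34.9 CPM in strongly adherent cells, without overlap. It fell with the block by 0.52 on the log2 scale (SE 0.09, edgeR adjusted p = 3.67e-07; 0.273 without it). OAS3 fell with the block by 0.22 (SE 0.08, edgeR adjusted p = 0.0347; 0.412 without it), while OAS2 had -0.20 and did not pass. Among the rest, ADAR, which edits adenosine in double-stranded RNA, had 314, 308 and 314 CPM in weakly and 289.9 and 289 CPM in strongly adherent cells. It was higher in every weakly adherent library, with a log2 fold change of 0.11 (edgeR adjusted p = 0.541, SE 0.07) that passed neither fit. EIF2AK2, the kinase PKR that halts translation, had 0.07 (SE 0.08), the exonuclease ISG20 had -0.32 (SE 0.21), and the helicase DDX60 had -0.03.

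Antiviral GTPases and nucleotide enzymes had negative log2 fold changes in all 5 cases (median -0.38), and 1 fell with the date as a block. RSAD2, which encodes viperin, an enzyme that makes a chain-terminating nucleotide, had 13.8, 19.2 and 23.5 CPM in weakly adherent cells (6, 12 and 15 March), against 22.9 and 35.0 CPM in strongly adherent cells (6 and 15 March). The weakly adherent library of 15 March lay just above the strongly adherent one of 6 March, so the groups overlapped although each pair differed. The log2 fold change was -0.62 (SE 0.24, edgeR adjusted p = 0.309), and with the block RSAD2 was 1.56-fold lower (-0.65, SE 0.10, edgeR adjusted p = 3.19e-09). MX1, a dynamin-like GTPase that traps viral nucleoproteins, had 15.4, 17.2 and 18.6 CPM in weakly and 18.2 and 20.2 CPM in strongly adherent cells, which overlap (log2 fold change -0.17, SE 0.11, edgeR adjusted p = 0.593). Its relative MX2 had -0.38 (SE 0.20) at 2.23 to 3.23 CPM, the guanylate-binding protein GBP1 had -0.19 (SE 0.09), and CMPK2, a mitochondrial nucleotide kinase, had -0.40 (SE 0.33).

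The membrane proteins did not pass either fit (4 genes, median -0.05). IFITM3, which stops viruses from fusing in endosomes and had the highest mean level per kilobase of longest transcript among the 44 genes (145 CPM per kb, beside 135 for ISG15), had 109, 111 and 114 CPM in weakly and 130.8 and 119.9 CPM in strongly adherent cells. The groups did not overlap, and the log2 fold change was -0.17 (SE 0.07, edgeR adjusted p = 0.303). IFITM1 had 0.18, IFITM2 -0.03 and BST2, the tetherin that holds budding virions at the surface, -0.07. The IFITM genes are close copies of each other, so the share of reads assigned to each is uncertain. Among the remaining 12 genes the log2 fold change was below 0 for 8 (median -0.07), and 1 fell with the block. That was IFI27, a small hydrophobic protein of mitochondria, with 31.1, 33.5 and 33.2 CPM in weakly and 39.4 and 37.6 CPM in strongly adherent cells. Its groups did not overlap, and the log2 fold change of -0.24 (edgeR adjusted p = 0.205, SE 0.09) was -0.26 (SE 0.08, edgeR adjusted p = 0.0237) with the block. PARP14 and the DTX3L and PARP9 pair, which attach ADP-ribose and ubiquitin, had 0.14, 0.11 and 0.07, and PARP14 and DTX3L were higher in all 3 weakly adherent libraries without passing. The induced proteins IFI6 and IFI35, the apoptosis factor XAF1 and the antibody receptor TRIM21 lay between -0.08 and 0.04, and SAMD9, SAMD9L, IFI44 and IFI44L, described with the dates, between -0.17 and -0.09.

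The 44 interferon response genes also differed between the dates, mostly towards higher levels on 15 March. In edgeR's fit of 15 March over 6 March, made on 4 libraries with adhesion as covariate, 10 of the 44 genes were higher on 15 March and 0 lower, where 9.29% of all 13249 genes tested were called, 6.74% higher and 2.55% lower. The 10 were DDX60, IFIT1, IFIT2, IFIT3, OAS2, RSAD2, SAMD9, SAMD9L, IFI44 and IFI44L, 1.19-fold to 1.79-fold higher. The log2 fold change was positive for 37 of the 44 genes, against 50.6% of all genes, and its median was 0.11. Within weakly adherent cells the median log2 ratio (CPM + 0.5) of 15 over 6 March was 0.23, with 2 genes negative. Over all genes it was 0.02, with 47.1% negative. Within strongly adherent cells the median of the 44 genes was 0.05, with 16 negative, beside -0.00088 and 50.2% negative for all genes. Of the 44 genes 26 were higher on 15 March in both groups, against 33.8% of all genes, and 0 were lower in both. The fit has 1 residual degree of freedom. DESeq2 called 1 of the 44 (RSAD2), beside 160 higher and 43 lower of all 13249 genes tested. Without the adhesion term edgeR called 0 of the 44 and 0 of all genes. In that fit 6 of the 44 had an unadjusted p under 0.05, beside 1257 of all 13249 genes.

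The 10 genes called between the dates included a helicase, the IFI44 pair and the poxvirus restriction factors SAMD9 and SAMD9L. DDX60, a helicase linked to RIG-I signalling, had 32.4 CPM on 15 March and 22.4 CPM on 6 March in weakly adherent cells, and 31.9 CPM on 15 March and 24.7 CPM on 6 March in strongly adherent cells. Its values of one date lay close together whichever the group, and the log2 fold change (15 over 6 March) was 0.45 (SE 0.09, edgeR adjusted p = 6.71e-05), or 1.36-fold. IFI44, an induced cytoplasmic protein, had 46.6 CPM on 15 March and 34.9 CPM on 6 March in weakly, and 50.8 and 42.1 CPM on those dates in strongly adherent cells. It rose in both groups (0.34, SE 0.08, edgeR adjusted p = 0.00102), and its relative IFI44L, at 1.19 to 2.77 CPM, rose by 0.84 (SE 0.26, edgeR adjusted p = 0.0208). SAMD9, a restriction factor that shuts down translation, had 64.7 CPM on 15 March and 47.6 CPM on 6 March in weakly, and 67.4 and 59.6 CPM in strongly adherent cells. The log2 fold change was 0.30 (SE 0.08, edgeR adjusted p = 0.00174), and that of its neighbour SAMD9L 0.25 (SE 0.08, edgeR adjusted p = 0.0151), with 60.3 CPM on 15 March and 46.4 CPM on 6 March in weakly and 60.6 and 55.0 CPM in strongly adherent cells. RSAD2 rose 1.60-fold (0.68, SE 0.10, edgeR adjusted p = 1.51e-09), IFIT2 by 0.30 (SE 0.07, edgeR adjusted p = 0.00175), IFIT3 by 0.26 (SE 0.07, edgeR adjusted p = 0.00363), IFIT1 by 0.27 (SE 0.08, edgeR adjusted p = 0.00948) and OAS2 by 0.27 (SE 0.09, edgeR adjusted p = 0.0239). The weakly adherent library of 12 March lay between those of 6 and 15 March for DDX60, IFI44, IFI44L, SAMD9L and RSAD2, and above both for IFIT1, IFIT2, IFIT3, OAS2 and SAMD9.

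Side by side, 4 of the 44 genes passed both tests, that of adhesion with the date as a block and that of date: IFIT1, IFIT2, IFIT3 and RSAD2. The adhesion test alone was passed by 9 genes, among them ISG15 and HERC5, whose date log2 fold changes were 0.03 and 0.00. These average opposite changes, 0.32 and 0.14 in weakly and -0.24 and -0.12 in strongly adherent cells. For ISG15 the adhesion log2 ratio was -0.60 on 6 March and -0.05 on 15 March. The date test alone was passed by 6, among them DDX60, whose log2 fold change for adhesion with the block was -0.05. The other 25 passed neither. The date fit and the blocked adhesion fit rest on the same 4 libraries, the lowest values of IFIT1, IFIT2, IFIT3 and RSAD2 being in the weakly adherent library of 6 March and the highest in the strongly adherent library of 15 March. For RSAD2 the date difference (0.68) was of the size of the adhesion difference (-0.65), while for IFIT2 the date difference (0.30) was smaller in size than the adhesion difference (-0.58). A test of whether the adhesion difference itself changed between dates has no residual degrees of freedom.

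**Figure D4:**
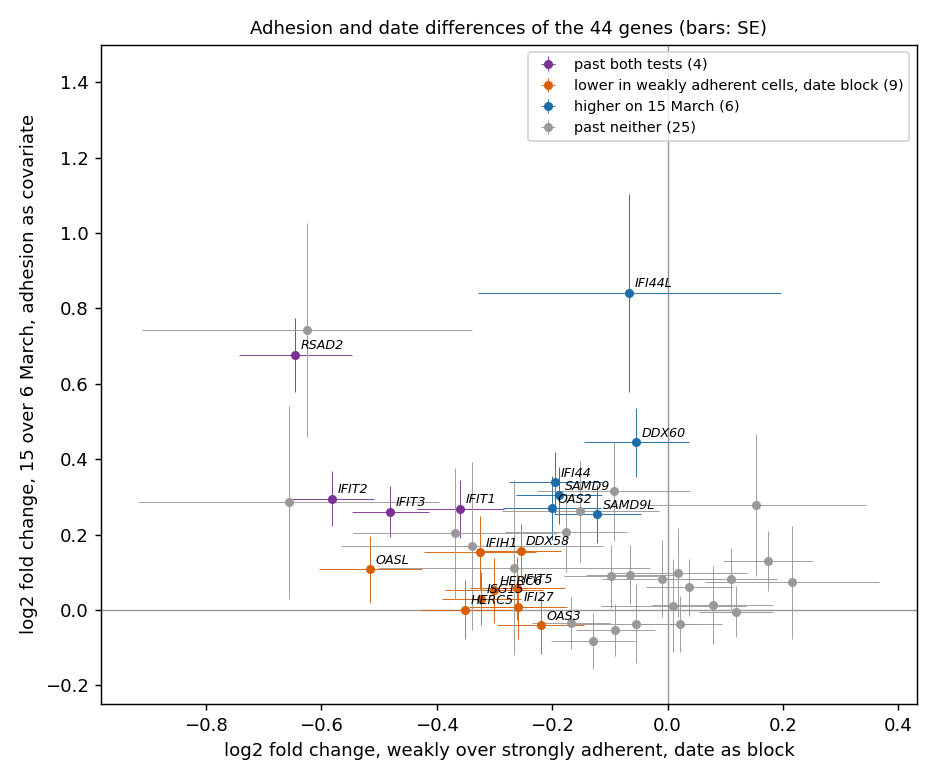
Log2 fold change of each of the 44 genes for weakly over strongly adherent cells with the date as a block (horizontal axis) and for 15 over 6 March with adhesion as covariate (vertical axis); bars are standard errors, and colours give which test was passed at an edgeR adjusted p under 0.05. IFIT1, IFIT2, IFIT3 and RSAD2 (purple) lie to the upper left, the 9 genes past the adhesion test alone (orange) lie left with date differences of -0.04 to 0.16, and the 6 past the date test alone (blue) lie high.

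The other genes of the pathway are read against the shares called over all genes. Of 57 tested genes of the pathway that are not among the 44 (receptors and kinases, sensing and induction, further induced genes and negative regulators), 0 passed the adhesion test, which called 2.68% of all genes. Values below 0 were found for 32, with a median of -0.02. The 28 further induced genes alone had 16 below 0 and a median of -0.02. With the date as a block 4 of the 57 were lower and 1 higher, where 5.28% of all genes were called lower and 6.2% higher. Of the 28 further induced genes 2 were lower and 1 higher in that fit. Between the dates 5 of the 57 were higher on 15 March and 0 lower, where 6.74% of all genes were called higher and 2.55% lower, and the median was 0.01. Of those 28 genes 3 were higher on 15 March. IFNAR2, a chain of the type I interferon receptor, had 12.6, 13.3 and 15.4 CPM in weakly adherent cells (6, 12 and 15 March), against 17.7 and 18.2 CPM in strongly adherent cells (6 and 15 March). The groups did not overlap, and the log2 fold change was -0.38 (SE 0.12, edgeR adjusted p = 0.128), or -0.36 (SE 0.11, edgeR adjusted p = 0.0154) with the block. The other chain, IFNAR1, had 60.0, 84.3 and 80.8 CPM in weakly and 67.5 and 80.9 CPM in strongly adherent cells. It did not differ between groups beyond its spread (0.02, SE 0.15) and rose between the dates by 0.34 (SE 0.07, edgeR adjusted p = 0.000155).

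The DNA sensor cGAS, listed as MB21D1, fell with the block by 0.24 (SE 0.08, edgeR adjusted p = 0.028; 0.271 without it), as did TRIM14, a mitochondrial adaptor of RNA sensing, by 0.22 (SE 0.07, edgeR adjusted p = 0.0294; 0.238 without it) and the capsid restriction factor TRIM5 by 0.34 (SE 0.12, edgeR adjusted p = 0.0372; 0.429 without it). TICAM1, the adaptor of the RNA receptor TLR3, had -0.27 (SE 0.11, edgeR adjusted p = 0.273) and did not pass with the block. ZNFX1, an RNA sensor at mitochondria, was the 1 higher gene with the block (0.19, SE 0.07, edgeR adjusted p = 0.0437; 0.442 without it). Between the dates the apolipoprotein L gene APOL6 (0.36, SE 0.08, edgeR adjusted p = 0.000475), the GTPase gene GBP2 (0.33, SE 0.10, edgeR adjusted p = 0.0238), TLR3 (0.51, SE 0.17, edgeR adjusted p = 0.0315) and APOL1 (0.25, SE 0.08, edgeR adjusted p = 0.0316) rose along with IFNAR1. TRIM5, ZNFX1 and APOL1 are named because they complete these short lists, after their values were seen.

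Transcript length runs with adhesion in these libraries, so it is given beside the result. Genes with coding sequences over 10 kb deviated in the median from the mean of the 5 libraries by 0.28, 0.17 and 0.35 in weakly adherent cells (6, 12 and 15 March), against -0.51 and -0.28 in strongly adherent cells (6 and 15 March). The 44 genes have coding sequences of 366 to 5403 bases. With each library's trend with coding length removed, the median log2 fold change for adhesion was -0.18 and 0 of the 44 passed. With the date block as well it was -0.19 and 15 of the 44 were lower, the 13 named above with SAMD9 and SAMD9L. Over all 13297 genes tested, 695 were called lower in that fit and 599 higher. With the trend removed, 10 of the 44 were higher on 15 March, beside 699 of all 13249 genes tested.

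Promoter windows of 300 bases (250 before and 50 after a start, RefSeq, GRCh38.p14) were found for 37 of the 44 genes. No window was found for IRF7, USP18, IFIT2, OAS2, OASL, MX2 and IFITM2. Of these, IFIT2 and OASL are among the 13 lower with the block, and IFIT2 and OAS2 among the 10 higher on 15 March. The ISRE core, TTTC repeated after any 2 bases on either strand, was in the window of 25 of these 37 (67.6%), against 4.38% of 27305 genes. The letters TTCNNNGAA of the gamma-activated site, an element of interferon-gamma signalling, were in 10 of the 37 (27.0%), against 9.38% of all genes. Of the 25 genes with an ISRE core, 9 were lower in weakly adherent cells with the date as a block and the median was -0.18; of the 12 without, 2 were lower (HERC6 and DDX58) and the median was -0.10. Between the dates 7 of the 25 and 1 of the 12 were higher, with medians of 0.13 and 0.09. For the gamma-activated site the medians with the block were -0.02 with and -0.19 without a match, and 1 of 10 and 10 of 27 were lower. Only a gap of 2 bases was counted. GAAACGAAA, with a gap of 1 base, stands in windows of DDX58, OAS1 and XAF1, which are among the genes without a match. The differences between genes with and without a match were not tested, and a match of letters is no shown binding site.

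**Figure D5:**
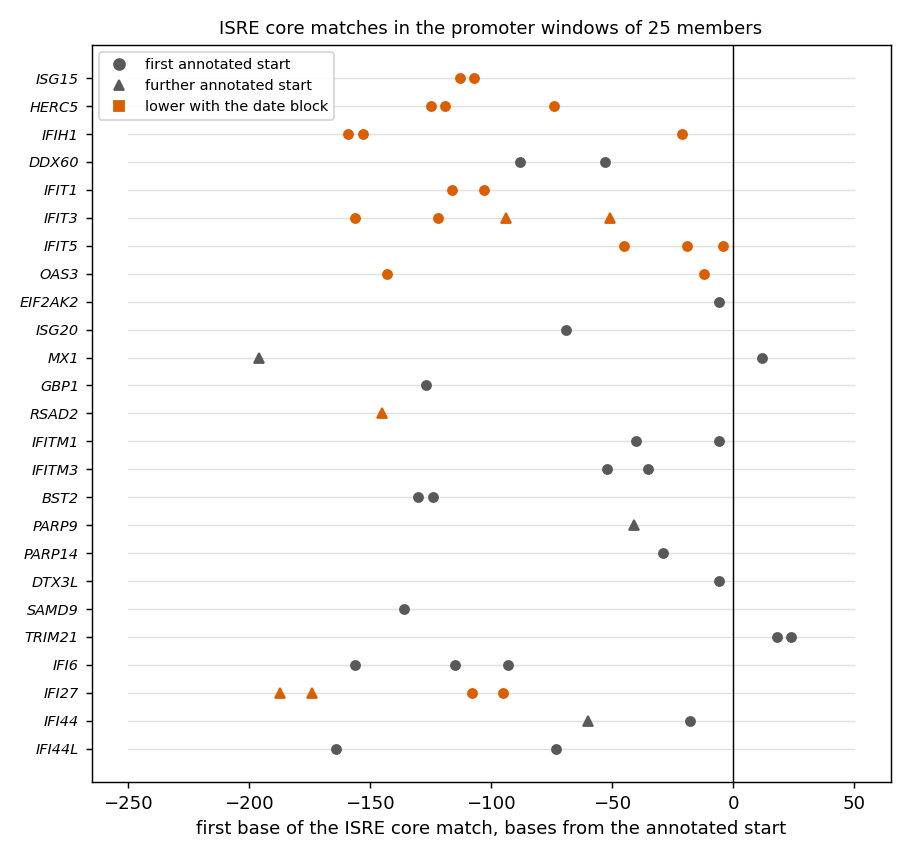
Position of each ISRE core match in the promoter windows of the 25 genes that hold one, in bases from the annotated start (vertical line at 0); circles are matches before or after the first annotated start and triangles those of a further start. Orange genes were lower in weakly adherent cells with the date as a block. Their matches begin before the start, as do those of most grey genes. In IFIT5 (orange) and in EIF2AK2, DTX3L and IFITM1 (grey) 1 match runs across the start.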

How the data were processed

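Total RNA of 5 samples was measured: purified with RNeasy columns, checked on a TapeStation, made into libraries with the TruSeq Stranded RNA kit and sequenced on a HiSeq system as 50 bp single-end reads, per the labels' protocols. Tools named in the submitters' processing notes are STAR, HTSeq, cutadapt, FastQC and DESeq2, with hg19 as build. The annotation and the strand setting were not given in the sources used here. Overlapping or antisense genes and near-identical copies may therefore share reads. The authors deposited raw counts per gene symbol, which were used for every test, and log2 values, which equal log2(count / size factor + 1) on checking. HTSeq's 5 summary rows were left out throughout; reads outside features were 7.96% to 9.84% and not aligned reads 1.74% to 3.02%.

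Groups follow the adhesion label. The 44 genes, the other pathway genes and the markers were chosen with earlier results of these data known. Tests used edgeR 4.0.16 under R 4.3.3 (TMM, filterByExpr, robust quasi-likelihood F test, Benjamini-Hochberg adjusted p under 0.05 over all genes tested; 3 residual degrees of freedom, biological coefficient of variation 7.91%). Log2 fold changes run weakly minus strongly adherent, or 15 minus 6 March; standard errors were derived from these and F. Pairs were compared as log2(CPM + 0.5), and counting intervals are exact binomial ones at 95%. The date in the titles pairs the groups' libraries. Deviations from the group means correlated within a date at 0.41 (6 March) and 0.24 (15 March); for the weakly adherent library of 12 March the correlation was -0.20 with 6 March and 0.20 with 15 March in strongly adherent cells. A group of 2 has mirrored deviations, so this says little about pairing. Replicates of a group differed by more than sampling noise (a chi-square of 7.49 to 12.6 per degree of freedom).

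Named in full are ISG15, IFIT1, STAT2, IRF9, IRF1, MX1, OAS1, DDX58 and the 8 of the 44 genes with the lowest p per fit; of the other pathway genes, the 4 with the lowest p per fit, and IFNAR1 and IFNAR2. The results of 1 pathway gene and 1 marker are not reported here. Coding lengths came by symbol from GENCODE release 29. Alternatives were DESeq2's size factors, DESeq2 1.42.0's Wald test, limma-voom and limma-trend (limma 3.58.1; trend on the deposited log2 values), other filters, the date block, the coding length trend, and each library left out; DESeq2 and limma-voom with the block, and the block without the library of 12 March, were added after the data were seen. Promoters were matched by symbol, DDX58 as RIGI. The tests were tried on simulated data. Figures were drawn with matplotlib 3.10.9.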

Additional observations from a re-analysis of the deposited data

Results flagged for a closer look

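The change from 6 to 15 March went opposite ways in the groups for 3 genes. ISG15 had a log2 ratio (15 over 6 March, from the scaled counts) of 0.32 in weakly adherent cells and -0.24 in strongly adherent cells. HERC5 had 0.14 in weakly and -0.12 in strongly adherent cells, and BST2 had 0.13 in weakly and -0.22 in strongly adherent cells. The difference was not tested, since each group has 1 library per date and no residual degree of freedom is left; the 95% counting intervals of both groups exclude 0 for all 3 genes and cover counting error only.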

How the results depend on the processing

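Depth, 1 residual degree of freedom in both dated fits and 2 strongly adherent libraries limit precision. Over all genes, the adhesion counts of 235 higher and 122 lower became 825 and 702 with the replicate block (date), 831 and 695 with limma-voom and the block, 812 and 695 with the block but without the weakly adherent library of 12 March (chosen after the data were seen), and 599 and 695 with the block and the coding length trend removed; that trend alone gave 127 higher, and no filter gave 203 lower. Leaving out each library gave 82 to 238 higher and 34 to 103 lower. Of the 44 genes, the 0 called lower became 13, 13, 13 and 15 under those 4 blocked fits, 4 with DESeq2 and the block, and 1 with DESeq2 alone; without the block, 0 were called whichever library was left out. With the date block alone, edgeR changed the calls of the 13 genes named in the report and of no other of the 44 genes. Without any 1 of the other 4 libraries the blocked fit has no residual degree of freedom and was not run.

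Between the dates, the 893 higher and 338 lower genes became 160 and 43 with DESeq2 and 0 and 0 without the adhesion term, and 639 were lower with the length trend removed. The 10 of the 44 genes became 1 and 0 under the first 2 of these. Leaving out each library, without the adhesion term, gave 0 to 6 higher and 0 lower over all genes and 0 of the 44, with a median of 0.021 to 0.29 beside 0.11.

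For single genes, 415 values under alternatives kept direction and call, 46 gained a call, 46 lost it and 25 changed sign. With a library left out, the adhesion log2 fold change ran from -0.20 to 0.17 for DDX60 and from -0.18 to 0.057 for SAMD9. The date log2 fold change then ran from -0.26 to 0.33 for ISG15, -0.10 to 0.23 for IRF9, -0.22 to 0.99 for OAS1, -0.015 to 0.34 for DDX58, -0.23 to 0.25 for HERC5, -0.16 to 0.18 for IFI27, -0.11 to 0.23 for IFIT5, -0.0034 to 0.64 for IFIT2 and -0.11 to 0.21 for HERC6. The length trend turned the date value of ISG15 to -0.015, of HERC5 to -0.017 and of IFI27 to -0.038; no filter gave -0.0082 for HERC5 and -0.00099 for IFI27, and HERC5 was -0.0015 with DESeq2's size factors and -0.0092 without the adhesion term. With a library left out, the date fits had no adhesion term, and the date that lost a library kept a single adhesion group. The adhesion difference therefore enters those date ranges. The cause of the other shifts was not tested.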
